A study of Mus musculus with 16 samples.

Results

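The 9 genes described here encode transcription factors that set up and maintain the macrophage lineage, together with receptors for the colony-stimulating factors: Spi1, Runx1, Maf, Cebpa, Cebpb, Cebpd, Csf1r, Csf2ra and Csf3r. They were taken by name from the gene count table, where they are 9 of 56748 genes, and all 9 passed the filter on low counts that left 13438 genes for testing. The cells were bone marrow-derived macrophages from 4 male wild-type C57BL6 mice, and each mouse gave 1 library to each of 4 groups, 16 libraries in all. The groups were SR9009 followed by LPS, LPS, SR9009, and DMSO, the vehicle. SR9009 activates the nuclear receptors REV-ERBα and REV-ERBβ, which repress clock genes, and cells were exposed to 10 µM of it for 16 hours. LPS is the bacterial lipopolysaccharide sensed by Toll-like receptor 4, and exposure to 100 ng/mL lasted 6 hours. All groups were grown in medium with supernatant of L929 cells, a source of CSF1, so the ligand of the CSF1 receptor was supplied to every group, DMSO included. For the LPS group only LPS is named. Whether those cells had DMSO beforehand is not given, so a vehicle difference and the LPS or SR9009 effect cannot be told apart in the comparisons that use this group.

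PU.1, encoded by Spi1, is the master regulator of myeloid fate. It works together with C/EBP factors and RUNX1 at the enhancers and promoters of myeloid genes, the CSF receptor genes among them. CSF1 acting through its receptor tyrosine kinase keeps macrophages alive, GM-CSF acts through the alpha chain encoded by Csf2ra with a shared beta chain, and G-CSF acts through the receptor encoded by Csf3r, best known from neutrophils. Of the C/EBP family, C/EBPα is tied to lineage commitment in myeloid precursors, whereas C/EBPβ and C/EBPδ are known as inducible factors of the inflammatory response.

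Total counts ran from 12616442 to 24214863 per library. The library that stood apart was SR9009 of mouse 1, which had the lowest total and 13298 detected genes, against 16419 or more in the other 15. It scored 184.6 on the second principal component (23.1% of the variance), and the others lay between −38.7 and 32.2. Values without it are given beside most of the main results that use it. The cells carried macrophage transcripts in every group: all 8 macrophage markers, including Adgre1, Mpeg1 and Csf1r, averaged at least 1 CPM (the count scaled to a common library size, with TMM factors). Lyz2 was the lowest of them in each group, at 29.5 CPM with SR9009 and LPS, 23.5 CPM with SR9009, 37.7 CPM with LPS and 31.5 CPM with DMSO. Monocyte markers summed to 5.98 to 147 CPM and osteoclast markers to 19.2 to 47.0 CPM per library. The sums for T and NK cells, B cells, dendritic cells, mast cells and basophils, erythroid cells and fibroblasts were at most 9.88 CPM each in any library. The part of other cells in the results was not tested. In bulk RNA, fewer cells of a type and less RNA per cell cannot be told apart.

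LPS moved most of these genes. Against DMSO, 7 of the 9 passed the edgeR quasi-likelihood test at a Benjamini-Hochberg adjusted p under 0.05, with Spi1, Maf, Cebpb, Cebpd and Csf3r higher and Cebpa and Csf1r lower. The background was high: 39.8% of all tested genes passed in this comparison, 19.4% higher and 20.4% lower. The median log2 fold change was 0.89 over the 9 genes and −0.08 over all tested genes. The CPM values of LPS and DMSO libraries did not overlap for the same 7 genes, a property of 57.6% of all tested genes. The SR9009 library of mouse 1 is in neither group but adds to the shared estimate of the spread. Leaving it out, the same 7 passed, with 57.4% of 13645 genes passing. Scaling mattered for the overall balance, which was 2611 genes higher and 2741 lower with TMM, 2126 and 3459 with upper-quartile scaling, and 1451 and 5845 with total counts. Among the 9, the directions of the 7 held under each of these, and the call for Maf was lost under the last 2.

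SR9009 without LPS moved none of the 9 past the threshold, where 0.878% of all tested genes passed. At an unadjusted p under 0.05 the edgeR test gave 1 of 9, Csf1r, and the share of all tested genes under that cutoff was not counted. No member passed the adjusted threshold under any of 31 other settings, DESeq2 and limma-voom among them. Over all genes, 198 passed with mouse number in the model, against 118 without it. The median log2 fold change of the 9 genes was −0.37, against 0.01 over all tested genes. Leaving out SR9009 of mouse 1, 0 of the 9 passed and the median was −0.33, with 1.77% of 13645 genes passing.

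SR9009 given before LPS, set against LPS alone, left Maf and Csf3r lower. These 2 of 9 stood against a background of 1.79% of all tested genes, with 1.06% higher and 0.737% lower, and the median log2 fold change was −0.68 over the 9 genes and 0.02 over all. At an unadjusted p under 0.05 the edgeR count was 7 of 9. The share of all tested genes under that unadjusted cutoff was not counted, and the 1.79% is at the adjusted one. The groups did not overlap for 5 of the 9 (Spi1, Maf, Cebpa, Cebpd and Csf3r), against 14.4% of all tested genes. Without the SR9009 library of mouse 1, which is in neither group but adds to the shared estimate of the spread, 5 of the 9 passed: Spi1, Maf, Cebpd and Csf3r lower and Cebpa higher, with 11.5% of 13645 genes passing. Over all genes, 241 passed with 142 higher and 99 lower, 535 passed with mouse number in the model, and with total-count scaling 322 were higher and 79 lower. The calls for Maf and Csf3r sat close to the threshold and are also lost under other settings, as given beside each gene.

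LPS given after SR9009, set against SR9009 alone, raised 4 of the 9 (Spi1, Cebpb, Cebpd and Csf3r), with 30.3% of all tested genes passing and 14.5% higher. The median log2 fold change was 0.44 for the 9 genes and −0.12 for all tested genes. The overall split was 1944 genes higher and 2126 lower, 1706 and 2779 with upper-quartile scaling, and 1356 and 4621 with total counts. Groups did not overlap for Spi1, Cebpd and Csf3r, 3 of the 9, against 27.3% of all tested genes. Leaving out SR9009 of mouse 1, the same 4 were higher and Cebpa was lower, with 43.5% of 13645 genes passing. No member passed the test of the interaction, the SR9009 effect with LPS minus the effect without it, which 0.00744% of all tested genes (1 gene) passed in edgeR. At an unadjusted p under 0.05 the count of members was 0 as well, and 15 genes passed with mouse number in the model.

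**Figure D1:**
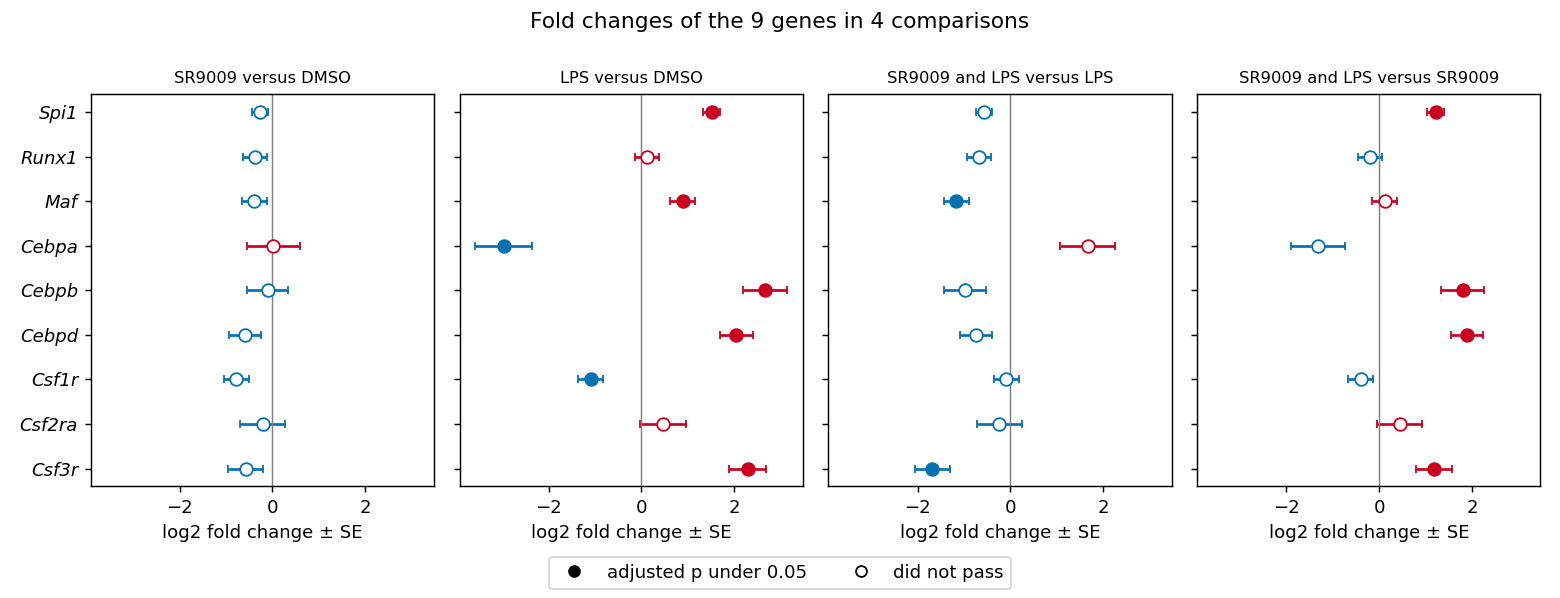
Log2 fold change with its SE for each of the 9 genes in 4 comparisons, from the edgeR fit of all 16 libraries. Filled points passed the threshold of 0.05 on the adjusted p. With LPS against DMSO, 7 genes are filled, from Cebpa at −2.97 to Cebpb at 2.66, and with SR9009 against DMSO none is.

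The promoters of the members that passed in LPS against DMSO and were found in the RefSeq promoter table are shown because these 3 genes moved in opposite directions, Cebpb and Csf3r up and Cebpa down. Each run is the 250 bases before the RefSeq start on the + strand of GRCm38.p6, a build older than the GRCm39 coordinates of the count table. Capitals mark matches, on either strand, to GAGGAA (a core of PU.1 sites), TTGCG (part of the C/EBP palindrome) and TGACG (part of the cAMP response element, a site of CREB and ATF proteins).
Cebpa, chr7:35119043-35119292: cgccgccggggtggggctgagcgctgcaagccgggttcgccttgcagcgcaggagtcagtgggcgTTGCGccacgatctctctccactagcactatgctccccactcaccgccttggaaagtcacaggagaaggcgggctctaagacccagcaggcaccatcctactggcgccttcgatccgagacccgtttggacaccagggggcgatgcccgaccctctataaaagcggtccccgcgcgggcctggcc
Cebpb, chr2:167688665-167688914: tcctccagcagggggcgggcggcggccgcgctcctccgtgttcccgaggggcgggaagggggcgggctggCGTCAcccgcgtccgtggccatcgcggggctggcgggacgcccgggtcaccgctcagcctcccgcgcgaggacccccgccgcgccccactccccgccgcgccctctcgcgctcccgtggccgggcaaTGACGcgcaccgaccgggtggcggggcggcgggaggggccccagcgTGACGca
Csf3r, chr4:126024409-126024658: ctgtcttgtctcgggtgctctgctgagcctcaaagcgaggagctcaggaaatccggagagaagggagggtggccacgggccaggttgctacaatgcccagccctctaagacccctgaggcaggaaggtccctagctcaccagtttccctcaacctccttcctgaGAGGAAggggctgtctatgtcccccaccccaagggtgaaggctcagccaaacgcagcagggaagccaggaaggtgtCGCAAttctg
The Cebpb promoter held TGACG or its reverse complement 3 times, beginning 180, 53 and 7 bases before the start. The Csf3r promoter held GAGGAA, beginning 86 bases before the start, and the C/EBP letters, beginning 10 bases before it. The Cebpa promoter held the C/EBP letters, beginning 185 bases before its start. Of 32851 promoter windows of 300 bases (250 before and 50 after the start), 28.3% held GAGGAA, 17.4% TTGCG and 20.8% TGACG on either strand. In all, 6 promoters of 5 members were found with Csf1r left out of the search, the others belonging to Runx1 and Csf2ra. TGTGGT, a RUNX core held by 16.8% of windows, was found at Runx1 only. TGANTCA (the AP-1 site, 7.81% of windows), TTCNNNGAA (a STAT site, 8.3%) and the NF-kB motif (4.51%) were in none of the 6. A match is a stretch of letters and not a measured binding site, and no motif listed here overlapped another in the printed runs.

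Spi1 (ENSMUSG00000002111, chromosome 2, 90912735 to 90946101, + strand, GRCm39, as all coordinates below) encodes PU.1. In mice 1 to 4 it had 1148, 1293, 1203 and 1171 CPM with LPS, against 417, 466, 399 and 404 CPM with DMSO. Every LPS library stood far above every DMSO library, and the spread within each group was narrow (SD 63.5 CPM with LPS and 30.5 CPM with DMSO). Spi1 was 2.86-fold higher with LPS (log2 1.52, SE 0.18, edgeR adjusted p = 7.25e-06). With SR9009 followed by LPS it had 629, 860.0, 843 and 926 CPM, and with SR9009 alone 271, 392, 398 and 341 CPM. All 4 libraries with both agents lay below the lowest LPS library and above the highest SR9009 library. Against SR9009 the rise was 2.32-fold (log2 1.22, SE 0.18, edgeR adjusted p = 7.97e-05; log2 1.17 without the mouse 1 SR9009 library). Against LPS the value was 1.48-fold lower in the means and lower in 4 of 4 mice (log2 −0.56, SE 0.18), and it missed the threshold (adjusted p = 0.126). It passed without the SR9009 library of mouse 1 (log2 −0.53, adjusted p = 0.0117) and with DESeq2 (adjusted p = 0.00287). Over 31 other settings, the adjusted p ranged from 0.00287 to 0.576. SR9009 alone stood below DMSO without overlap but did not pass (log2 −0.26, SE 0.17, adjusted p = 0.574; log2 −0.21 without the mouse 1 library), and in mouse 3 the values were 398 CPM with SR9009 and 399 CPM with DMSO.

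Runx1 (ENSMUSG00000022952, chromosome 16, 92398354 to 92623037, − strand) encodes the RUNX factor required for the emergence of blood cells. It had 71.2, 111, 152 and 149 CPM with LPS and 103, 121, 119 and 103 CPM with DMSO. LPS values lay on both sides of DMSO values, lower in mice 1 and 2 and higher in mice 3 and 4 (log2 0.12, SE 0.26, adjusted p = 0.750). Runx1 after both agents had 55.5, 51.1, 99.0 and 97.6 CPM, lower than with LPS in 4 of 4 mice although the groups overlapped (log2 −0.68, SE 0.26, adjusted p = 0.239). With SR9009 alone it had 98.1, 77.5, 89.8 and 80.1 CPM. These 4 values lay below all DMSO values, a separation that 9.54% of all tested genes also had, and the test was not passed (log2 −0.37, SE 0.26, adjusted p = 0.609; log2 −0.48 without the mouse 1 library).

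Maf (ENSMUSG00000055435, chromosome 8, 116409681 to 116434533, − strand) encodes c-MAF, a factor of mature macrophages known for promoting Il10 and restraining self-renewal. It had 1301, 1199, 829 and 822 CPM with LPS and 592, 630.4, 515 and 503 CPM with DMSO, without overlap. The 1.85-fold higher level with LPS passed (log2 0.89, SE 0.27, adjusted p = 0.0165). That call depended on scaling and on single libraries: the adjusted p was 0.0527 with upper-quartile scaling (log2 0.70), 0.405 with total counts (log2 0.25), and 0.0555 without the LPS library of mouse 1. It was 0.0755, 0.0726 and 0.0708 without mouse 2, 3 or 4.

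After SR9009 and LPS, Maf had 256, 598, 519 and 479 CPM, all below the lowest LPS library. It was 2.24-fold lower than with LPS (log2 −1.16, SE 0.28, adjusted p = 0.0414; 4 of 4 mice), and the drop was larger in mouse 1, at −2.34 on the log2 scale, than in the others, at −1.0 to −0.68. The call held in 11 of 31 other settings, with adjusted p from 0.00403 to 0.289. It was lost with RLE and upper-quartile scaling, with no filter and with the compared groups alone. Leaving out mouse 2, 3 or 4 ended it too, as did leaving out any DMSO or LPS library, SR9009 of mouse 3 or 4, or SR9009 and LPS of mouse 1, 3 or 4. With SR9009 alone it had 628, 336, 399.8 and 339.8 CPM. The highest of these was the mouse 1 library, the only one above DMSO of its own mouse. Neither SR9009 against DMSO (log2 −0.40, SE 0.27, adjusted p = 0.596) nor SR9009 and LPS against SR9009 (log2 0.12, SE 0.27, adjusted p = 0.783) passed. Without the mouse 1 SR9009 library these were log2 −0.69 (adjusted p = 0.261) and 0.43 (adjusted p = 0.170). With SR9009 and LPS against SR9009, mice 2 to 4 gave 0.38 to 0.83 and mouse 1 −1.29 on the log2 scale.

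**Figure D2:**
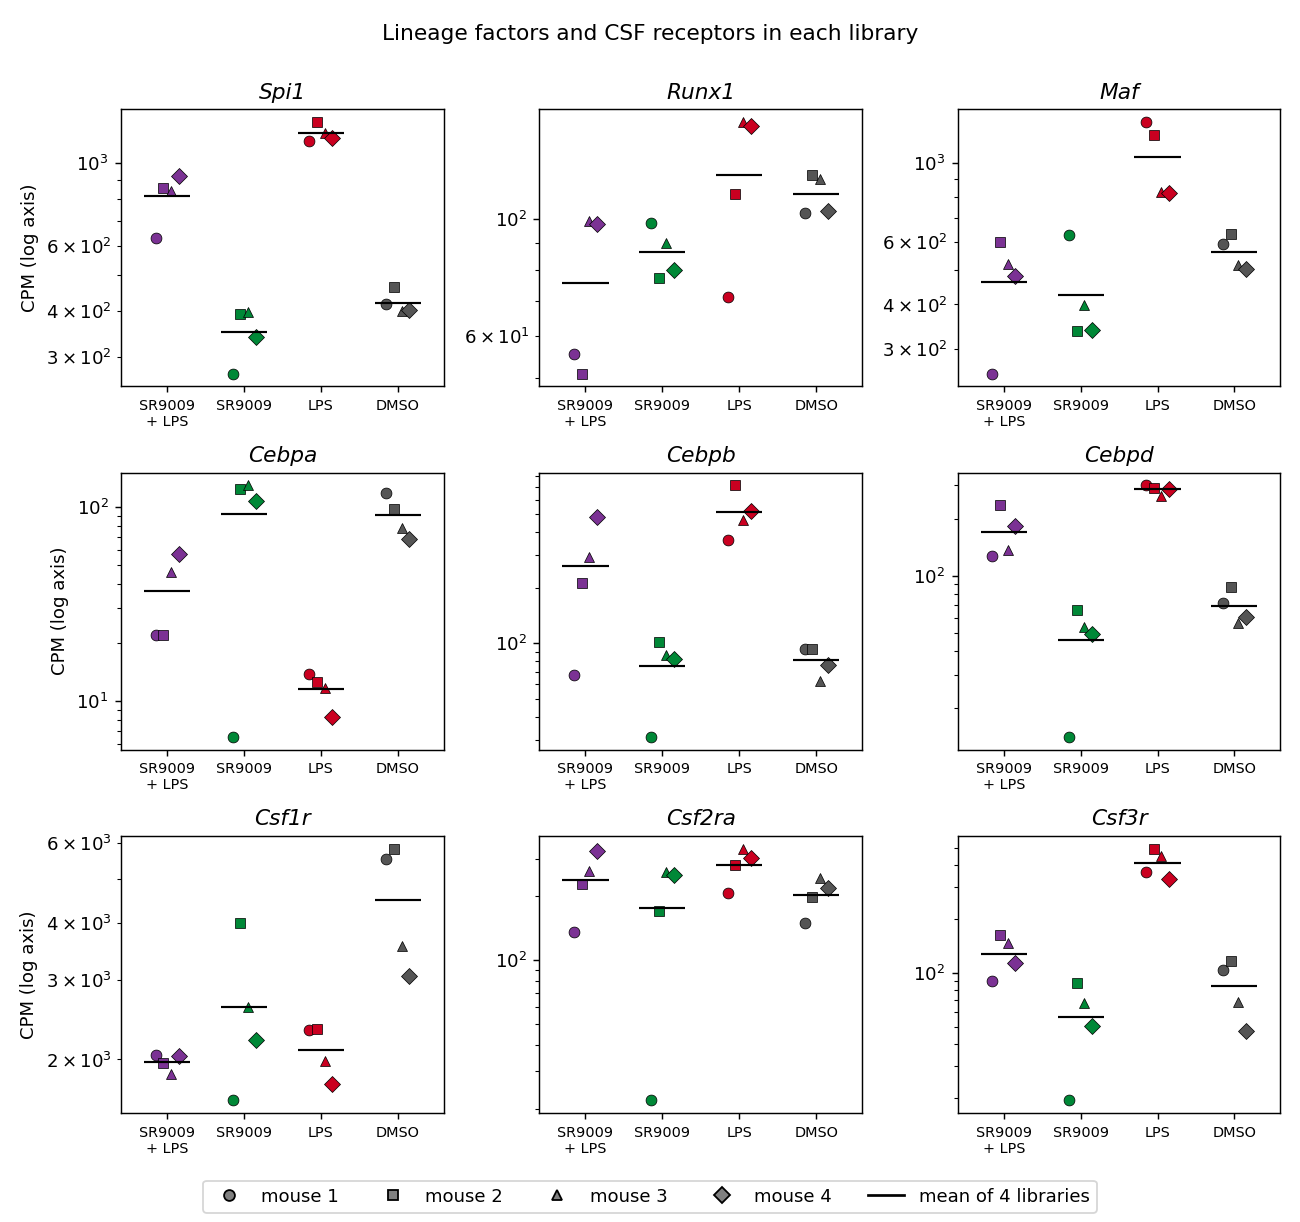
CPM of each gene in each of the 16 libraries, on log axes, with groups from left to right SR9009 and LPS, SR9009, LPS, and DMSO. Symbols give the mouse and bars the mean of 4 libraries. LPS libraries stand above DMSO for Spi1, Maf, Cebpb, Cebpd and Csf3r and below for Cebpa and Csf1r, and the SR9009 library of mouse 1 is the lowest of its group for Cebpa (6.55 CPM) and Csf2ra (21.9 CPM).

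The C/EBP genes split. Cebpa (ENSMUSG00000034957, chromosome 7, 34818718 to 34821353, + strand) had 13.8, 12.5, 11.6 and 8.28 CPM with LPS, against 118, 97.7, 77.8 and 68.6 CPM with DMSO. Every LPS library was far below every DMSO library, and the 7.82-fold drop passed (log2 −2.97, SE 0.62, adjusted p = 0.00121). Both agents together gave 21.9, 22.0, 46.0 and 56.8 CPM, all above the highest LPS library and all below the lowest DMSO library. The level was 3.17-fold that with LPS in the means of the fit (log2 1.67, SE 0.59), higher in 4 of 4 mice, and did not pass with all libraries (adjusted p = 0.188). Without the SR9009 library of mouse 1 it did (log2 1.69, adjusted p = 0.00294). Over 31 other settings the adjusted p ranged from 0.00294 to 0.724, and 4 settings passed.

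That library was itself extreme for this gene. With SR9009 alone Cebpa had 6.55, 123, 129 and 107 CPM, so 3 mice lay near or above DMSO and mouse 1 was lower by 4.14 on the log2 scale. The SR9009 mean was 91.4 ± 57.3 CPM (SD, n = 4), or 120 ± 11.0 CPM without that library (n = 3), against 90.4 ± 21.8 CPM with DMSO. No test of SR9009 against DMSO passed (log2 0.02 with it, 0.36 without it). Against SR9009, SR9009 and LPS gave log2 −1.32 (adjusted p = 0.0971) with the library and −1.65 (adjusted p = 0.000527) without it.

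Cebpb (ENSMUSG00000056501, chromosome 2, 167530835 to 167532338, + strand) had 361, 716, 467 and 517 CPM with LPS, against 93.0, 93.0, 62.7 and 76.6 CPM with DMSO. Its 6.33-fold rise was the largest among the 9 genes in this comparison (log2 2.66, SE 0.48, adjusted p = 0.000364). SR9009 followed by LPS gave 67.5, 213, 292 and 482 CPM. This was a wide spread, with mouse 1 below DMSO of the same mouse and mouse 4 near its LPS library. All 4 mice were lower than with LPS, by 2.42, 1.75, 0.68 and 0.10 on the log2 scale in mice 1 to 4, and the groups overlapped (log2 −0.97, SE 0.45, adjusted p = 0.365). With SR9009 alone it had 31.2, 102, 86.7 and 82.4 CPM (log2 −0.10 against DMSO, and 0.11 without the mouse 1 library, neither passing). SR9009 and LPS stood 3.48-fold above SR9009 (log2 1.80, SE 0.46, adjusted p = 0.00764), and at log2 1.60 without the mouse 1 SR9009 library (adjusted p = 0.00967). The adjusted p was 0.0640 when only these groups were fitted, and 0.0585 and 0.0990 without mouse 3 or 4.

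Cebpd (ENSMUSG00000071637, chromosome 16, 15705150 to 15708895, + strand) had 299, 289.6, 264 and 287 CPM with LPS, against 71.2, 87.5, 56.4 and 60.5 CPM with DMSO. The LPS values spread little (SD 15.0 CPM), and the 4.14-fold rise passed (log2 2.05, SE 0.35, adjusted p = 0.000264). Cebpd had 127, 236, 136 and 182 CPM with SR9009 and LPS, below every LPS library and above every SR9009 library. Against LPS the difference did not pass with all libraries (log2 −0.74, SE 0.34, adjusted p = 0.351) and did without the SR9009 library of mouse 1 (log2 −0.72, adjusted p = 0.0258). Over 31 other settings Cebpd passed in 2 here, with adjusted p from 0.00332 to 0.735. With SR9009 alone it had 14.1, 65.8, 53.6 and 49.3 CPM, lower than DMSO in 4 of 4 mice (log2 −0.59, SE 0.34, adjusted p = 0.517; log2 −0.34 without the mouse 1 library). Against SR9009, SR9009 and LPS was 3.72-fold higher (log2 1.89, SE 0.35, adjusted p = 0.000707; log2 1.66 without the mouse 1 SR9009 library).

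Both genes overlap a gene on the other strand, and the strand setting of the counting is not given in the sources used here, so reads of the partners could be mixed. Peds1, overlapping Cebpb, had counts equal to 61.9% of those of Cebpb over all libraries. It was 180.2 ± 27.8 CPM with LPS and 93.0 ± 8.29 CPM with DMSO (SD, n = 4; log2 0.95, adjusted p = 0.0569). Spidr, overlapping Cebpd, had 29.5% of the Cebpd counts, with 51.2 ± 8.42 CPM with LPS and 26.7 ± 3.98 CPM with DMSO (log2 0.94, adjusted p = 0.00138). In SR9009 and LPS against LPS both partners were lower in 4 of 4 mice, as both C/EBP genes were. Peds1 averaged 112.6 ± 61.8 CPM with SR9009 and LPS and 180.2 ± 27.8 CPM with LPS (log2 −0.68, adjusted p = 0.469, beside −0.97 for Cebpb). Spidr averaged 39.1 ± 7.66 CPM with SR9009 and LPS and 51.2 ± 8.42 CPM with LPS (log2 −0.39, adjusted p = 0.408, beside −0.74 for Cebpd). The part of reads from these partners in the C/EBP values was not tested.

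The balance within the C/EBP genes was read from FPKM, the deposited values that allow for gene length. Cebpa made up 1.09% ± 0.389 of the summed FPKM of the 3 genes with LPS and 32.0% ± 3.50 with DMSO (SD, n = 4). Its share was 6.51% ± 2.40 with SR9009 and LPS and 30.6% ± 14.4 with SR9009, where mouse 1 was at 9.20% and mice 2 to 4 at 35.3% to 40.4%. The lowest share with SR9009 and LPS, 3.92%, was above the highest with LPS, 1.61%. Cebpb held 80.2% ± 4.76 with LPS and 50.7% ± 2.81 with DMSO, and it held 69.6% ± 13.7 with SR9009 and LPS and 56.6% ± 13.6 with SR9009, with mouse 1 at 76.9%. Cebpd held 23.9% ± 12.6 with SR9009 and LPS and 12.8% ± 0.981 with SR9009, and the mice with both agents spread from 12.5% to 38.9%. Its share was 18.7% ± 4.42 with LPS and 17.3% ± 1.62 with DMSO.

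**Figure D3:**
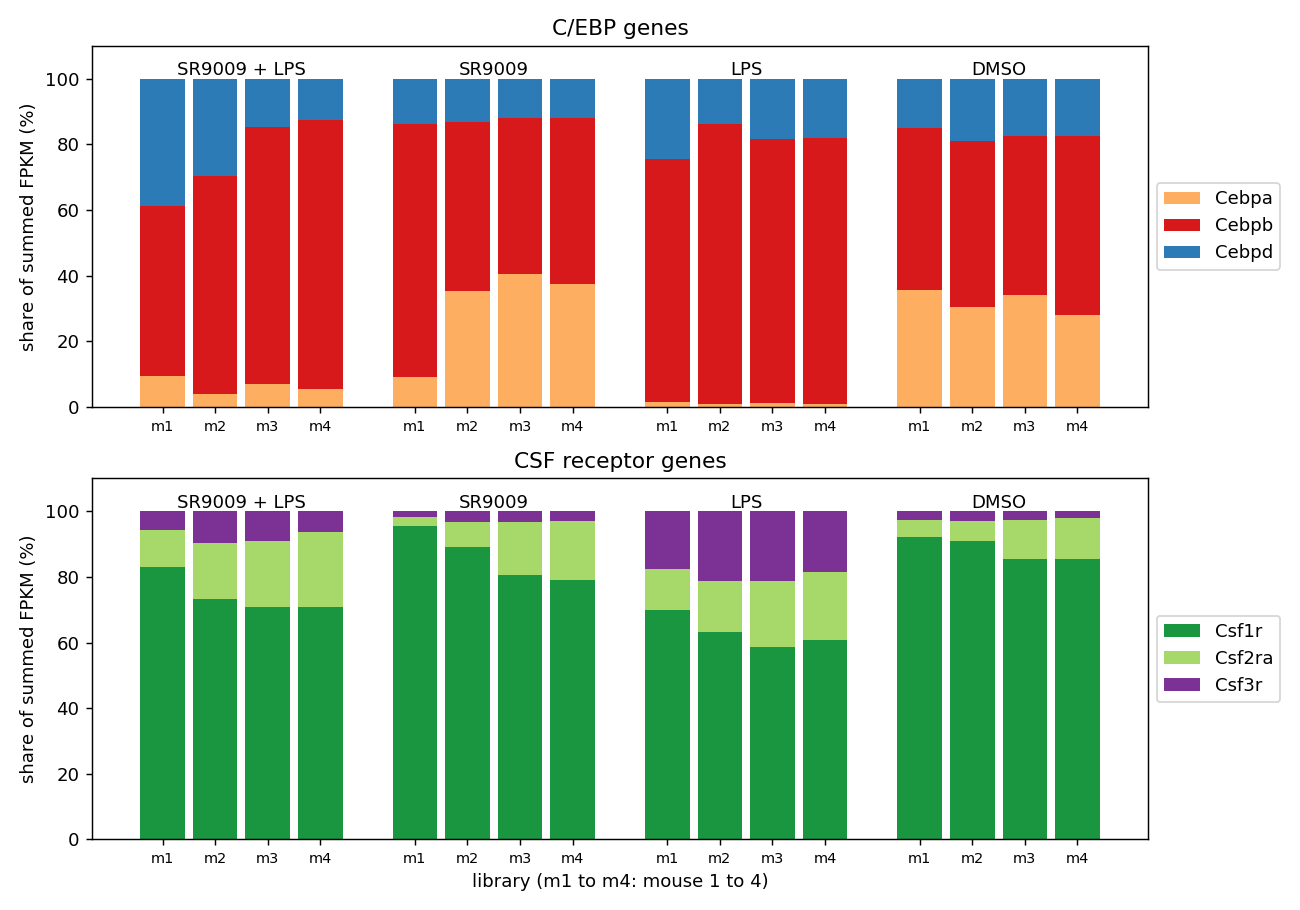
Share of each gene in the summed FPKM of the 3 C/EBP genes (upper panel) and of the 3 CSF receptor genes (lower panel), 1 bar per library, in percent. Cebpa averages 1.09% with LPS and 32.0% with DMSO, and Csf3r averages 7.67% with SR9009 and LPS and 19.6% with LPS.

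Among the receptors, Csf1r (ENSMUSG00000024621, chromosome 18, 61233670 to 61265221, + strand) was the most abundant. It had 2323, 2338, 1983 and 1762 CPM with LPS, against 5521, 5823, 3561 and 3047 CPM with DMSO. All LPS libraries lay below all DMSO libraries, and within DMSO mice 1 and 2 were higher than mice 3 and 4. The 2.14-fold drop passed (log2 −1.09, SE 0.27, adjusted p = 0.00407) and held in 31 of 31 other settings. SR9009 followed by LPS gave 2049.7, 1966, 1859.9 and 2033 CPM, inside the range of LPS (log2 −0.09, SE 0.27, adjusted p = 0.946).

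With SR9009 alone Csf1r had 1626, 4001, 2604 and 2208 CPM, lower than DMSO of the same mouse in 4 of 4 mice. The size was −1.76 on the log2 scale in mouse 1 and −0.54 to −0.45 in mice 2 to 4. Over all libraries it was 1.72-fold lower (log2 −0.78, SE 0.27, edgeR adjusted p = 0.270). Without the mouse 1 library it was log2 −0.65 (adjusted p = 0.301). Groups overlapped, because DMSO of mice 3 and 4 lay within the SR9009 range. SR9009 and LPS against SR9009 did not pass (log2 −0.40, SE 0.27, adjusted p = 0.280; log2 −0.51, adjusted p = 0.0995 without the mouse 1 SR9009 library). Hmgxb3, which overlaps Csf1r on the other strand, had counts of 1.10% of those of Csf1r.

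Csf2ra (ENSMUSG00000059326, chromosome 19, 61212395 to 61216867, − strand), for the GM-CSF receptor alpha chain, passed in none of the comparisons with all libraries in the model. It had 206, 281, 335 and 303 CPM with LPS, and 149.9, 198, 245 and 220.2 CPM with DMSO. The step was nearly the same in each mouse, 0.45 to 0.51 on the log2 scale, and mouse 1 was the lowest in both groups. The test did not pass (log2 0.47, SE 0.49, adjusted p = 0.479) with all 4 groups in the model. It passed with LPS and DMSO libraries alone (adjusted p = 0.0482), and it did not with mouse number in the model (adjusted p = 0.347). With mouse number in the model and SR9009 of mouse 1 left out it passed (log2 0.46, adjusted p = 0.00409). With SR9009 and LPS it had 136, 229, 264 and 326 CPM, and with SR9009 21.9, 170.3, 260.0 and 252 CPM. The mouse 1 library was far below the other SR9009 libraries, and neither SR9009 comparison passed (log2 −0.24, adjusted p = 0.908 with LPS; log2 −0.21, adjusted p = 0.885 without). The second of these was log2 0.11 with the mouse 1 library left out. SR9009 and LPS against SR9009 gave log2 0.44 (adjusted p = 0.541) with that library and 0.13 (adjusted p = 0.707) without it.

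Csf3r (ENSMUSG00000028859, chromosome 4, 125918343 to 125938233, + strand), for the G-CSF receptor, had 364, 493, 448 and 333 CPM with LPS, against 103, 116, 68.9 and 47.1 CPM with DMSO. Groups were well apart, and the 4.88-fold rise passed (log2 2.29, SE 0.39, adjusted p = 0.000246). With SR9009 and LPS it had 89.5, 162, 147 and 113 CPM. Each was below the lowest LPS library, and the drops were alike across mice, between −2.02 and −1.55 on the log2 scale. Csf3r was 3.20-fold lower than with LPS (log2 −1.68, SE 0.38, adjusted p = 0.0363). The adjusted p was 0.0135 with mouse number in the model and 0.00212 with SR9009 of mouse 1 left out. The call held in 17 of 31 other settings, with log2 values from −1.81 to −1.51 and adjusted p up to 0.289. It was lost when mouse 2, 3 or 4 was left out, or any library of LPS or of SR9009 and LPS, DMSO of mouse 1 or 3, or SR9009 of mouse 4.

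With SR9009 alone Csf3r had 19.4, 87.8, 67.8 and 50.3 CPM, lower than DMSO in 3 of 4 mice (log2 −0.57, SE 0.38, adjusted p = 0.570; log2 −0.33 without the mouse 1 library). SR9009 and LPS was 2.27-fold above SR9009 (log2 1.18, SE 0.38, adjusted p = 0.0271), and log2 0.96 without the mouse 1 SR9009 library (adjusted p = 0.0170). This call held in 23 of 31 other settings. The adjusted p was 0.09996 when only these groups were fitted and 0.112 with total counts. It was 0.0514, 0.115 and 0.0990 without mouse 2, 3 or 4, 0.0632 without SR9009 of mouse 4, and 0.0768 and 0.0613 without SR9009 and LPS of mouse 2 or 3. Per mouse, the difference between the SR9009 effects in the presence and in the absence of LPS was −1.65 to −1.20 on the log2 scale in mice 2 to 4 and 0.39 in mouse 1. The interaction was not passed with all libraries (log2 −1.11, SE 0.53, edgeR adjusted p = 0.702). It passed when the SR9009 library of mouse 1 was left out and mouse number was in the model (log2 −1.32, adjusted p = 0.0324), and did not with that library left out alone (adjusted p = 0.155).

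Csf3r is also carried by neutrophils. The 9 neutrophil markers summed to 0.707 to 5.81 CPM with SR9009 and LPS, 0.256 to 0.906 CPM with SR9009, 2.16 to 7.24 CPM with LPS and 0.182 to 0.401 CPM with DMSO. S100a8, at 4.43 CPM with LPS and 0.223 CPM with DMSO, accounted for most of the LPS sum, and Ly6g and Retnlg had 0 counts in all 16 libraries.

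Of the summed FPKM of the 3 receptor genes, Csf1r held 63.2% ± 4.90 with LPS and 88.5% ± 3.54 with DMSO. Csf3r held 19.6% ± 1.97 with LPS and 2.61% ± 0.344 with DMSO. The Csf3r share with SR9009 and LPS was 7.67% ± 1.90, from 5.80% to 9.64%, below all LPS libraries (17.5% to 21.4%) and above all SR9009 libraries (1.82% to 3.35%). Csf2ra held 17.8% ± 5.05 with SR9009 and LPS, against 17.2% ± 3.98 with LPS.

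**Figure D4:**
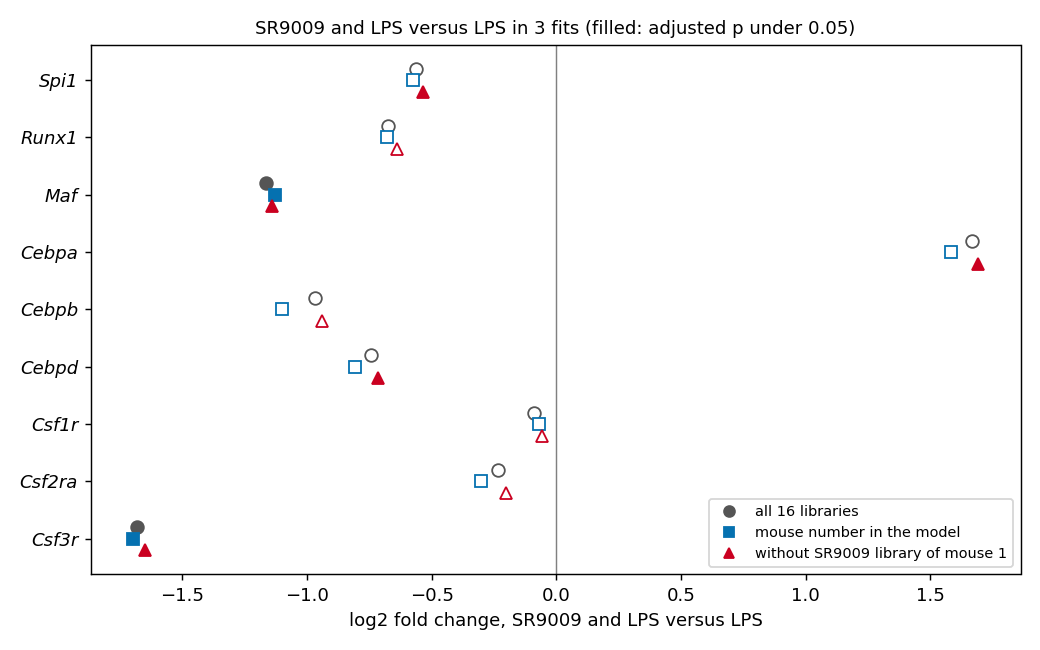
Log2 fold change of each gene in SR9009 and LPS against LPS under 3 fits: all 16 libraries, mouse number added to the model, and the SR9009 library of mouse 1 left out. Filled symbols have an adjusted p under 0.05. The values move little between fits (Csf3r −1.68, −1.70 and −1.65), whereas 2, 2 and 5 of the 9 genes pass. Over all tested genes, 241 of 13438, 535 of 13438 and 1566 of 13645 pass in these fits.

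The order of levels on the FPKM scale, which allows for gene length, differed by group. With SR9009 and LPS, Csf1r (339 ± 17.3), Spi1 (299 ± 44.9) and Cebpb (172 ± 111.5) led, and neighbours in the order overlapped down to Csf3r. With LPS, Spi1 (449 ± 26.1) stood above Csf1r (366 ± 56.0) without overlap, Csf1r and Cebpb (344 ± 100.0) overlapped, and Cebpa was the lowest at 4.42 ± 0.982. With DMSO, Csf1r led at 755 ± 231, Spi1 followed at 152 ± 11.0, and both were separate from the next. Csf2ra (68.8), Maf (66.0), Cebpb (52.5), Cebpa (33.3), Csf3r (22.6) and Cebpd (17.9) formed a run in which each overlapped its neighbour, and Runx1 was the lowest at 9.00 ± 0.784, separate from Cebpd. With SR9009 the order of the 9 means was the same as with DMSO, and without the mouse 1 library Maf, at 40.6 ± 3.70, came after Cebpb and Cebpa.

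Other genes of the CSF family were covered by a list of 9 ligands and receptor chains, of which 5 were tested. Csf1, the ligand of the CSF1 receptor, was at 45.7 ± 15.7 CPM with LPS and 4.05 ± 1.76 CPM with DMSO (log2 3.49, SE 0.56, adjusted p = 0.000130). It was at 32.1 ± 12.4 CPM with SR9009 and LPS and 0.846 ± 0.592 CPM with SR9009 (log2 5.17, SE 0.61, adjusted p = 1.22e-05). This step was log2 4.89 without the mouse 1 SR9009 library. SR9009 against DMSO did not pass for Csf1 (log2 −2.19, SE 0.56, adjusted p = 0.0993), and it did without the mouse 1 library (log2 −1.89, adjusted p = 0.0333). Against DMSO, the ligand gene was thus higher with LPS while the receptor gene was lower. In SR9009 and LPS against SR9009 the receptor gene did not pass (log2 −0.40, edgeR adjusted p = 0.280).

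Csf3, encoding G-CSF, had 1014 counts summed over LPS libraries and 0 over DMSO libraries. With the 0 replaced by a floor of 3 counts for the group, the ratio was 661, and the 95% counting interval began at 537. The LPS libraries spanned 0.666 to 31.5 CPM. Csf3 had 138 counts with SR9009 and LPS and 0 with SR9009, a ratio of 64.6 by the same floor, with the counting interval beginning at 51.8. The libraries with SR9009 and LPS spanned 0 to 4.92 CPM, so these groups overlapped, and 3 of 4 mice were higher than with SR9009. Set against LPS, SR9009 and LPS averaged 2.01 ± 2.39 CPM and LPS 16.9 ± 16.9 CPM (log2 −3.07, adjusted p = 0.371), and the test passed only with mouse number in the model (log2 −3.49, adjusted p = 0.0180) among the 3 fits in which the lists were counted. Floors cover counting error only. Csf2rb, the shared beta chain, was 747 ± 104 CPM with LPS and 321 ± 82.1 CPM with DMSO (log2 1.22, adjusted p = 0.00128). Csf2rb was 548 ± 74.8 CPM with SR9009 and LPS and 218 ± 75.2 CPM with SR9009 (log2 1.33, adjusted p = 0.000929, and log2 1.21 without the mouse 1 SR9009 library). Its near-identical copy Csf2rb2 (log2 0.30 with LPS against DMSO) and Il3ra (log2 0.60), the IL-3 receptor alpha chain, did not pass, and reads may be split between Csf2rb and Csf2rb2. In all, 3 of 5 passed as higher and 0 as lower in each LPS comparison, where 19.4% and 14.5% of all tested genes were higher. The median log2 fold changes were 1.22 against DMSO and 1.33 against SR9009. Csf3, 1 of the 3, had 0 counts with DMSO and with SR9009. It passed the filter through libraries with LPS and could pass only as higher here. Without the mouse 1 SR9009 library, 3 of 5 were higher and 0 lower against SR9009 (median 1.21), with 43.5% of 13645 genes passing. In edgeR 0 of 5 passed for SR9009 against DMSO (2 at an unadjusted p under 0.05, median −0.47), and 0 of 5 for SR9009 and LPS against LPS (0 unadjusted, median −0.45). The share of all tested genes under that unadjusted cutoff was not counted.

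Of 19 tested genes for proteins that signal from the CSF1 receptor, 11 were higher and 1 lower with LPS against DMSO (median log2 1.08), beside 19.4% higher and 20.4% lower over all tested genes. Among Src family kinases, Lyn was 1396 ± 142 CPM with LPS and 193 ± 15.2 CPM with DMSO (log2 2.86), and Src rose by log2 3.05. Sos1, a Ras exchange factor, rose by log2 3.36, and Inpp5d, the SHIP1 phosphatase that opposes PI3K, fell by 1.39. After SR9009, LPS raised 9 and lowered 1 of the 19 against SR9009 (median 0.48; 30.3% of all tested genes passed, 14.5% as higher), among them Lyn, Src and the phosphatase gene Ptpn6 (log2 1.32) as higher and Inpp5d as lower (log2 −1.50). Without the mouse 1 SR9009 library these counts were 10 and 2, with 43.5% of 13645 genes passing. In edgeR 0 of 19 passed for SR9009 against DMSO (3 at an unadjusted p under 0.05, median −0.19) and 0 of 19 for SR9009 and LPS against LPS (7 unadjusted, median −0.41). Beside these unadjusted counts, no share of all tested genes was counted. For SR9009 and LPS against LPS, 1 was lower with mouse number in the model, where 535 of all 13438 tested genes passed. With the mouse 1 SR9009 library left out, 1 was higher and 5 lower, beside 11.5% of 13645 genes passing.

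Of 22 other tested transcription factors of myeloid lineages, 8 were higher and 3 lower with LPS against DMSO (median log2 0.83), beside 19.4% higher and 20.4% lower over all tested genes, so the share that passed was near the 39.8% over all. Gfi1, a repressor that favours granulocyte over monocyte fate, had 1212 counts with LPS and 2 with DMSO, a ratio of 1185 after scaling (95% counting interval 327 to 9797). With so few counts in DMSO, Gfi1 could pass only as higher in this comparison. Id2, an inhibitor of E proteins, rose by log2 2.23, Ikzf1, encoding Ikaros, by 1.86 and Etv6, encoding an ETS repressor, by 1.71. Gfi1 was the only one of the 22 to pass in SR9009 and LPS against LPS, at 2.64 ± 2.43 CPM against 21.7 ± 4.52 CPM (log2 −3.03, SE 0.64, adjusted p = 0.0258; list median −0.16). With mouse number in the model 1 passed as higher and 2 as lower, beside 535 of all 13438 tested genes. The counts were 1 and 3 with the mouse 1 SR9009 library left out, beside 11.5% of 13645 genes passing. SR9009 and LPS against SR9009 gave 5 higher and 3 lower (median 0.47, beside 30.3% of all tested genes passing), among them Ikzf1 (log2 2.58), Etv6 (log2 1.98) and Fli1 (log2 −1.46). Leaving out the mouse 1 SR9009 library, 8 were higher and 3 lower, with 43.5% of 13645 genes passing. Gfi1 had 181 counts with SR9009 and LPS and 3 with SR9009. It passed the filter through libraries with LPS and could pass only as higher against SR9009. For SR9009 against DMSO the edgeR count was 0 of 22 (1 at an unadjusted p under 0.05, a cutoff for which no share of all tested genes was counted, median 0.15).

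Of 17 macrophage surface and granule genes, 4 were higher and 4 lower with LPS against DMSO (median log2 0.23), again near the 39.8% of all tested genes that passed. Cd163, the haemoglobin scavenger receptor, fell by 3.24, whereas Msr1 (scavenger receptor A, log2 3.18), Fcgr1 (a high-affinity Fc receptor, log2 2.79) and Cd14 (the LPS co-receptor, log2 1.98) rose. With SR9009 against DMSO, 0 were higher and 2 lower (median −0.15), where 0.878% of all tested genes passed. These were Cx3cr1, the fractalkine receptor, at 186 ± 44.5 CPM against 678 ± 69.8 CPM (log2 −1.86, SE 0.38, adjusted p = 0.0308), and Fcgr1, at 83.9 ± 33.7 CPM against 280.1 ± 103 CPM (log2 −1.74, SE 0.33, adjusted p = 0.0204). Both also passed without the mouse 1 library (adjusted p = 0.0404 and 0.0151). SR9009 and LPS against SR9009 gave 4 higher and 2 lower (median −0.11, beside 30.3% of all tested genes passing), with Fcgr1 (log2 3.53), Cd14 (log2 2.87), Msr1 (log2 1.46) and Cd163 (log2 −2.49) the smallest in p. These counts were 5 and 2 with the mouse 1 SR9009 library left out, with 43.5% of 13645 genes passing. SR9009 and LPS against LPS gave 0 of 17 in edgeR (6 at an unadjusted p under 0.05, with no share of all tested genes counted, median −0.12). Lower were 2 with mouse number in the model, where 535 of all 13438 tested genes passed. Without the mouse 1 library 5 were lower, beside 11.5% of 13645 genes passing.

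The genes most like each member were taken by Pearson correlation of log2 CPM over the 16 libraries among 9395 candidates, all protein coding and averaging 5 CPM or more. The points share their treatments, so the values describe likeness of pattern and no more. Nearest to Spi1 were Plagl2 (r = 0.99), Zfp36 and Psme1. Nearest to Runx1 were Gm10131 (r = 0.91), Isg20l2 and Wdr33, and nearest to Maf were Cttnbp2nl (r = 0.92), Laptm4a and Zc3h12d. Cebpa was most like Trp53inp2 (r = 0.99), St3gal2 and Cd99l2, Cebpb like Rab20 (r = 0.98), Ralgds and Ift22, and Cebpd like Psmb8 (r = 0.99) and Triobp. Csf1r was most like Cnpy3 (r = 0.93), Vsir and Tm2d2, Csf2ra like Sf3b4 (r = 0.99), Snrnp70 and Dctn1, and Csf3r like Tmem268 (r = 0.97), Evl and Pramel12. Without the SR9009 library of mouse 1, these genes stayed among the nearest 3 for Plagl2, Cttnbp2nl, Laptm4a, Trp53inp2, St3gal2, Rab20, Sf3b4, Tmem268 and Pramel12 only, and none did for Runx1, Cebpd or Csf1r.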

How the data were processed

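Poly(A) RNA was sequenced from 16 libraries, 1 per mouse and group. HISAT2 and the builds GRCm39 and mm39 are named in the submitters' processing notes. Not given in the sources used here are the HISAT2 version, the counting tool, its strand setting and the annotation. The deposited table holds raw counts per gene, with names, coordinates and lengths per the file headers. FPKM values, deposited as one table per sample, were scaled by the authors to gene length and library size, and were used for shares, for levels between genes and as an alternative unit.

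Of 56748 genes, 13438 passed filterByExpr with the 4 groups as its design (count of at least 10, total of at least 15), and all 9 members were among them. edgeR 4.0.16 in R 4.3.3 was used with TMM scaling and a robust quasi-likelihood fit of 1 mean per group over all 16 libraries. Adjusted p-values are Benjamini-Hochberg over all tested genes, with a threshold of 0.05. Counts of members and lists at an unadjusted p under 0.05 stand without a share of all tested genes, which was not counted. CPM use TMM-scaled library sizes, errors are SD over 4 libraries, and each SE comes from the fitted log2 fold change and its F statistic (their ratio, F under the root). The fitting and likeness steps were tested on simulated data.

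Groups share mice: the labels number them 1 to 4, and a number is 1 animal in all groups. Deviations from the group means had r of 0.0809 to 0.560 over 24 pairs of libraries of the same mouse, 22 of them above 0.1, and −0.567 to 0.522 over 72 pairs of different mice. The model has no mouse term, and the fit with one is an alternative. No label says that libraries came from separate cultures beyond the mouse, so p-values measure the spread between these 4 mice.

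Named genes were all 9 members, up to 4 passing genes of each of 4 pathway lists per comparison by smallest p, CSF family genes with at least 1 CPM in any group, and the 3 protein-coding genes most like each member (log2 CPM, prior count 2). A few genes that this rule names are not reported here. The overlapping genes Peds1, Spidr and Hmgxb3 were added later. The members and lists were chosen with earlier results of these data known, so no count over them is independent support. Promoters are from RefSeq on GRCm38.p6, and 5 of 9 members were matched by symbol. Members on chromosome 18, here Csf1r, were left out of that match. Alternatives were RLE, upper-quartile and total-count scaling, no filter, DESeq2 1.42.0, limma 3.58.1 on voom values or on log2 FPKM (pseudocounts 1 and 0.1), a mouse factor, the compared groups alone, and omission of each mouse or library. Sequences and figures used Python 3.11.15, pandas 2.3.3 and matplotlib 3.10.9.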

Additional observations from a re-analysis of the deposited data

How the results depend on the processing

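The counts of the 9 genes that passed stayed within 1.5 times of the values given, with these exceptions. For SR9009 and LPS against LPS, where 2 passed, the count was 1 with RLE scaling, with upper-quartile scaling and with no filter. It was 6 when the SR9009 library of mouse 1 was left out together with the replicate block, where 2900 of 13645 tested genes passed. For SR9009 and LPS against SR9009, 2 passed with the compared groups alone. For the interaction, 1 passed with that library out and the replicate block, where 271 of 13645 tested genes passed. Leaving out each mouse or library gave 6 to 7 members for LPS against DMSO, 0 to 5 for SR9009 and LPS against LPS, 2 to 6 for SR9009 and LPS against SR9009, 0 to 0 for SR9009 against DMSO and 0 to 0 for the interaction. The replicate block on its own (mouse number as a factor) changed no call of the 9 genes.

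Over all genes, the calls for SR9009 against DMSO were 118, and 198 with the replicate block, 331 with DESeq2, 4 with the compared groups alone and 586 with the mouse 1 SR9009 library out and the replicate block. For SR9009 and LPS against LPS they were 241, and 149 with no filter, 535 with the replicate block, 706 with DESeq2, 486 with the compared groups alone, 401 with total-count scaling and 2900 with that library out and the replicate block. For the interaction they were 1, and 15 with the replicate block, 103 with DESeq2, 0 with limma-voom, 52 and 12 with log2 FPKM and a pseudocount of 1 or 0.1, and 271 with that library out and the replicate block. For SR9009 and LPS against SR9009 they were 4070, and 2113 with the compared groups alone and 6845 with the library out and the replicate block, and for LPS against DMSO 5352 and 8847 with the library out and the replicate block. Leaving out each mouse or library gave 3506 to 7835 for LPS against DMSO, 5 to 1566 for SR9009 and LPS against LPS, 2430 to 5935 for SR9009 and LPS against SR9009, 1 to 242 for SR9009 against DMSO and 0 to 41 for the interaction. The cause of these moves was not tested.

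Directions turned only for values that had not passed. Cebpa in SR9009 against DMSO (log2 0.02) was −0.037 with RLE scaling, −0.015 with no filter, −0.16 with the replicate block, −0.038 with DESeq2, −0.56 with limma-voom, −0.54 and −0.63 with log2 FPKM and a pseudocount of 1 or 0.1, and −0.017 with the compared groups alone. The Csf2ra interaction (log2 −0.03) was 0.0044 with RLE, 0.039 with upper-quartile scaling, 0.053 with no filter, 0.16 with the replicate block, 0.0047 with DESeq2, 0.39 with limma-voom, 0.37 and 0.40 with log2 FPKM and a pseudocount of 1 or 0.1, and 0.16 with total counts. Runx1 in LPS against DMSO was −0.075 with upper-quartile scaling and −0.49 with total counts. With total counts, Csf2ra in LPS against DMSO was −0.16, Csf1r in SR9009 and LPS against LPS 0.092 and the Cebpd interaction 0.029. Maf in SR9009 and LPS against SR9009 was −0.028 with upper-quartile scaling and −0.29 with total counts. Runx1 in that comparison was 0.020 with the mouse 1 library out and the replicate block.

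When a mouse or library was left out, signs turned for Cebpa (−0.26 to 0.51), Cebpb (−0.29 to 0.18) and Csf2ra (−0.46 to 0.11) in SR9009 against DMSO, Runx1 (−0.032 to 0.30) in LPS against DMSO, Maf (−0.12 to 0.63) and Runx1 (−0.37 to 0.056) in SR9009 and LPS against SR9009, and the interactions of Cebpd (−0.38 to 0.080) and Csf2ra (−0.32 to 0.22).

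Upper-quartile scaling shifted the median of all genes by −0.19 in LPS against DMSO and −0.13 in SR9009 and LPS against SR9009. Total counts shifted it by −0.63 and −0.42 in these comparisons, by 0.17 in SR9009 and LPS against LPS and by 0.20 in the interaction. Total-count scaling, the list counts without the SR9009 library of mouse 1 and its omission with the replicate block were chosen after seeing the data. With 4 mice per group and a common biological coefficient of variation of 0.377, calls near the threshold, Maf and Csf3r in SR9009 and LPS against LPS among them, depended on single libraries.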
